A study of Mus musculus with 27 samples.

Results

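The genes that make, sense and break down retinoic acid were followed through freshly isolated mouse hepatocytes, hepatocyte organoids and periportal assembloids. A total of 9 genes, chosen by their symbols (Lrat, Adh1, Adh4, Dhrs3, Aldh1a1, Aldh1a2, Cyp26a1, Cyp26b1 and Rarb), were found among the 21848 genes of the deposited bulk RNA-seq table, leaving out its 2 reporter entries, and none was missing. The 27 libraries fell into 9 conditions of 3 libraries each, all from C57BL/6 mouse liver, and the sex and age of each donor were not given in the labels. Freshly isolated hepatocytes had no culture. Hepatocyte organoids (HepOrgs), wild type and at passage 2, were kept for 7 or 14 days (1 or 2 weeks) either in HM-Wnt, the expansion medium with growth factors, nicotinamide, a GSK3 inhibitor, a TGFβ receptor inhibitor and Wnt conditioned medium, or in MM, a minimal medium that holds the same basal mix with Wnt conditioned medium and a ROCK inhibitor only. Periportal assembloids, labelled wild type, were built in MM from 10 HepOrgs, 1000 cholangiocytes and either 250 portal mesenchymal cells (homeostatic) or 2500 portal mesenchymal cells (fibrotic-like), and were collected after 7 days (1 week) or 18 days (2.5 weeks).

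Some features of the groups bear on retinoid genes. Both media contain the B27 supplement: the labels list the standard form, which carries a retinyl ester, whereas the methods of the study list the form without vitamin A, so the retinoid supply of the cultures could not be settled. The mesenchymal cells of the assembloids were sorted as Pdgfra reporter positive and SCA1 positive cells, the cholangiocytes came from EpCAM positive organoids, and neither endothelial nor immune cells were added. Replicate 3 of the freshly isolated hepatocytes is titled wild type, but its genotype field reads MDR2-het. It was kept by its title, and results that rest on it are given with and without it. Neither the labels nor the methods say what a replicate number stands for, so p-values measure the spread between these libraries, which may in part be technical.

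Retinol reaches the liver from the diet and is oxidised stepwise, first to retinal by alcohol and retinol dehydrogenases and then, irreversibly, to retinoic acid by retinaldehyde dehydrogenases. Retinoic acid binds nuclear receptors (RARs) that sit on DNA with RXR partners, and it is cleared by the CYP26 hydroxylases. LRAT and DHRS3 draw the precursors back, the first by esterifying retinol for storage and the second by reducing retinal to retinol, and several of these genes are themselves switched on by retinoic acid, which closes a feedback loop. In the liver, retinyl esters are stored mainly in hepatic stellate cells, while hepatocytes hold most of the oxidising enzymes.

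In GRCm39 coordinates (GENCODE annotation), Lrat lies at chr3:82799886-82811288 on the minus strand. The alcohol dehydrogenase genes Adh1, at chr3:137966752-137996462, and Adh4, at chr3:138121125-138137305, lie near each other on the plus strand. Dhrs3 lies at chr4:144619245-144654779 on the plus strand, Aldh1a2 at chr9:71122630-71203527 on the plus strand, and Aldh1a1 at chr19:20469539-20622825 on the plus strand. Cyp26a1 lies at chr19:37686241-37689984 on the plus strand, Cyp26b1 at chr6:84548396-84570890 on the minus strand, and Rarb at chr14:5650540-6041094 on the plus strand.

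The DNA sequence that retinoic acid receptors are known to bind is a direct repeat of a 6-base unit. The RefSeq promoters (GRCm38.p6, 250 bases before to 50 bases after each start) were searched on both strands for the unit AGGTCA or its variants (written AGTTCA or as GGTTCA or as GGGTCA) repeated with a spacer of 5 bases. All 9 genes were in that table, with 12 promoters, and 2 genes held a match, Cyp26a1 and Rarb, whereas 0.0974% of all 32851 promoters did. In the 250 bases before GENCODE starts, 1 of the 9 genes held a match, Cyp26a1, as did 0.056% of 21441 promoters, and Rarb held none. With a spacer of 2 bases 0 of the 9 genes and 0.268% of promoters held a match, and with a spacer of 1 base 0 of the 9 genes and 0.222% of promoters did. The matches of the 2 genes are shown because both genes are compared across all conditions, with the repeated units in capitals and the spacer and flanks in lower case. The Cyp26a1 match was on the opposite strand and its first base lay 32 bases before the RefSeq start. The Rarb match was on the same strand and began 53 bases before the RefSeq start, which is base 299 counted from 1 at the start that GENCODE gives transcript Rarb-201. The sequences below were read from GRCm39 on the plus strand, at chr19:37686218-37686247 and chr14:5894228-5894257.
Cyp26a1: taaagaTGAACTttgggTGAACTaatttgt
Rarb: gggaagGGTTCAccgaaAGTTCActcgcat
A match describes letters only: no binding was measured, and the other 7 genes may hold such repeats outside these windows.

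Library totals ran from 30289364 to 65348596 counts, and 0 counts in a library allows up to 3 counts. The second homeostatic 1-week library stood apart, with 8465 genes detected where the others had 14016 or more, and tests between assembloids are given with and without it. Hepatocyte markers were present in every library. Summed over 7 markers they reached 75200 to 78500 TPM (the deposited values, scaled for gene length and to the same sum in each library) in fresh hepatocytes and 1690 to 62500 TPM elsewhere. Markers of cholangiocytes summed to 9.68 to 102 TPM in fresh hepatocytes and to 4790 to 20000 TPM in HepOrgs, into which no cholangiocytes had been mixed. In bulk samples, fewer cells of a type and less RNA per cell cannot be told apart. Levels below are raw counts for sparse genes and normalised counts (CPM, counts scaled to library size by the TMM method) for abundant ones, since the gene lengths behind the deposited TPM matched whole gene spans with introns in most cases and levels were therefore not compared between genes.

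The level of the 9 genes differed between conditions in several ways. Lrat, Adh4, Dhrs3 and Cyp26a1 had their highest mean TPM in fresh hepatocytes, where no library overlapped those of the condition next in order. Aldh1a2 was highest in the fibrotic-like assembloids of both ages, whose TPM values lay above those of the homeostatic assembloids at 2.5 weeks, the condition next in order. In CPM the lowest fibrotic-like library at 1 week (1.49) lay below 2 of those homeostatic libraries (3.11 and 2.11). Adh1 and Aldh1a1 were found at substantial levels in every condition, and most neighbours in their order overlapped. Cyp26b1 and Rarb were found in fresh hepatocytes and in fibrotic-like assembloids. Elsewhere Cyp26b1 had 0 to 7 counts, and Rarb had 4 to 50 counts outside the homeostatic library that stood apart. Their libraries from fresh hepatocytes and from fibrotic-like assembloids overlapped.

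**Figure D1:**
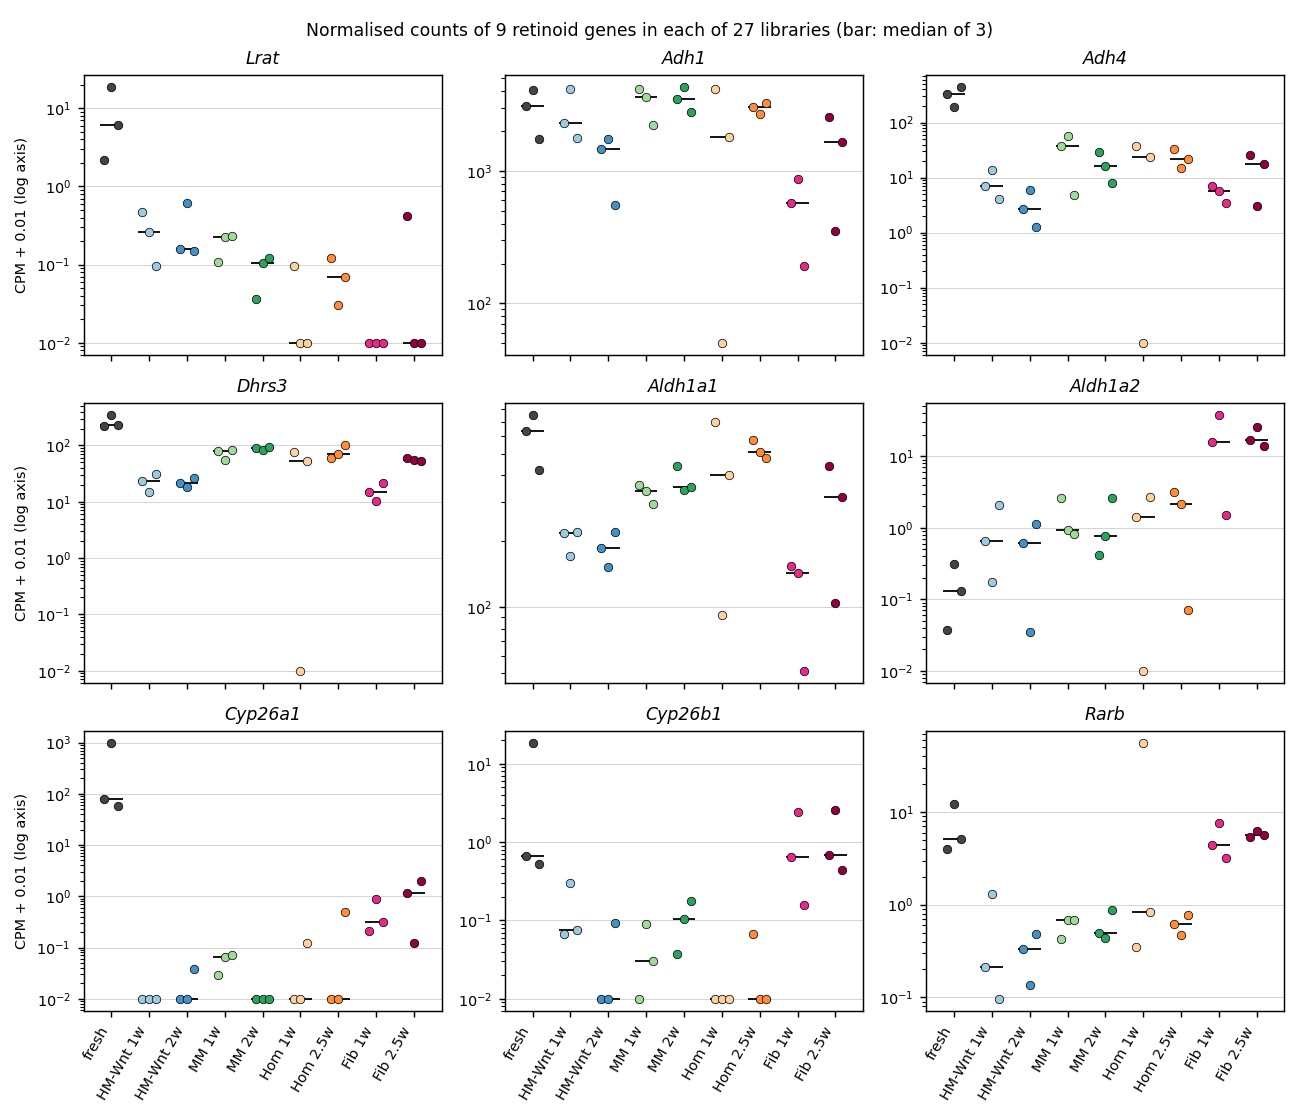
Normalised counts (CPM plus 0.01, log axis) of the 9 genes in each of the 27 libraries, 1 panel per gene, with the 9 conditions along the horizontal axis (fresh hepatocytes, HepOrgs in HM-Wnt or MM, homeostatic (Hom) and fibrotic-like (Fib) assembloids) and a bar at the median of the 3 libraries. Points on the lowest line are libraries with 0 counts; Lrat, Adh4, Dhrs3 and Cyp26a1 are highest in fresh hepatocytes, and Aldh1a2 is highest in fibrotic-like assembloids.

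The first comparison asked how far HepOrgs keep the retinoid genes of the hepatocytes they came from. The retinoic acid hydroxylases, Rarb, Lrat, Adh4, Dhrs3 and Aldh1a1 were lower in HepOrgs in both media and at both times. Adh1 was lower only in the test of HM-Wnt HepOrgs at 2 weeks, and Aldh1a2 was higher in MM HepOrgs at 1 week. By edgeR's quasi-likelihood test with Benjamini-Hochberg adjustment over 13405 genes, 7 of the 9 genes fell in HM-Wnt at 1 week (24.8% of all genes tested fell), 8 in HM-Wnt at 2 weeks (25.7%), 7 in MM at 1 week (21.3%) and 7 in MM at 2 weeks (20%). The 1 gene that rose did so in MM at 1 week, where 21.5% of all genes rose (19.7% at 2 weeks, with 0 of the 9). These counts include genes whose direction the filter on low counts set: Lrat, Cyp26a1 and Cyp26b1 passed it through the fresh hepatocytes alone and Aldh1a2 through the HepOrgs alone. Of the other 5 genes, which passed on both sides, 4, 5, 4 and 4 fell in the same order. The median log2 fold change of these 5 genes was −3.56, −3.61, −1.89 and −1.59, against 0.02, 0.03, 0 and −0.01 over all genes tested. Changes in any direction were found for 49.7%, 51.8%, 42.8% and 39.7% of all genes in the same order, so that a change by itself was common.

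Cyp26a1, the main hydroxylase that clears retinoic acid in the adult liver, had 2918, 22796 and 1941 counts in the 3 fresh libraries. In HepOrgs it had 0, 0 and 0 counts in HM-Wnt at 1 week and 0, 0 and 1 at 2 weeks, and in MM it had 1, 2 and 3 counts at 1 week and 0, 0 and 0 at 2 weeks. The gene thus went from one of the well-detected transcripts of fresh hepatocytes to the detection limit, and the groups did not overlap. Taking 3 counts per library as the floor, it was at least 4010-fold lower in HM-Wnt at 1 week and at least 4730-fold lower in MM at 2 weeks (adjusted p = 0.000132 and 0.000186, edgeR). The second fresh library set the size of these bounds, which were 749-fold and 884-fold without it. With its 1 count in HM-Wnt at 2 weeks the ratio was 34500-fold, with an exact 95% counting interval from 6190 to 1360000 that covers counting error only. Cyp26b1, its paralog that is better known from mesenchymal tissues, had 24, 427 and 17 counts in fresh hepatocytes and between 0 and 7 in every HepOrg library. Both hydroxylases passed the filter on low counts through the fresh hepatocytes alone, so the direction of their tests was set by it. The drop of Cyp26b1 was called in all 4 comparisons, with adjusted p from 0.00195 to 0.00645 by edgeR. Without the second fresh library, which held most of its counts, it was not called in HM-Wnt at 1 week (log2 fold change −1.81, adjusted p = 0.14) or in MM at 2 weeks (−2.11, adjusted p = 0.0966).

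Rarb, the receptor whose own promoter responds to retinoic acid, had 148, 289 and 166 counts in fresh hepatocytes. In HM-Wnt it had 7, 31 and 4 counts at 1 week and 13, 5 and 17 at 2 weeks, and in MM 21, 25 and 34 at 1 week and 18, 18 and 31 at 2 weeks. Every HepOrg library lay below every fresh one. The log2 fold change was −3.73 ± 0.82 (SE) and −4.35 ± 0.84 in HM-Wnt at 1 and 2 weeks, and −3.52 ± 0.80 and −3.52 ± 0.81 in MM (adjusted p = 0.00217, 0.00078, 0.00353 and 0.00379, edgeR). When 1 library was left out it ranged from −5.25 to −3.06 and from −4.71 to −3.69 in HM-Wnt. In MM it ranged from −3.79 to −2.85 and from −3.83 to −2.83.

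Lrat, which esterifies retinol, had 79, 436 and 199 counts in fresh hepatocytes. The HepOrg libraries held 16, 6 and 4 (HM-Wnt, 1 week), 6, 24 and 5 (HM-Wnt, 2 weeks), 5, 8 and 11 (MM, 1 week) and 1, 4 and 4 counts (MM, 2 weeks), with no overlap. Lrat passed the filter on low counts through the fresh hepatocytes alone, so the direction of its tests was set by it. The log2 fold change ranged from −4.72 ± 0.86 (HM-Wnt, 2 weeks) to −6.14 ± 0.91 (MM, 2 weeks), with adjusted p from 0.000184 to 0.000509 by edgeR. Without the second fresh library, which held most of the fresh counts, the range was −3.58 to −5.01. Markers of other cell types also differed between the fresh libraries. The summed TPM of 7 stellate cell markers was 15.6, 84.5 and 57.9 in the 3 fresh libraries, with none of the 7 at 0 counts, and 12.8 to 205 TPM in HepOrgs, with 0 to 4 of the 7 at 0 counts. The stellate sum was thus lowest in the first fresh library and highest in the second, as was Lrat, and the same order held for 7 endothelial markers (6.55, 29.5 and 28.5 TPM, against 0.0371 to 0.403 TPM in HepOrgs) and 7 immune markers (17.7, 128 and 61.9 TPM, against 21 to 197 TPM in HepOrgs). Gene by gene, the calls differed from the immune sums. In HM-Wnt at 1 and 2 weeks and MM at 1 and 2 weeks, 6, 6, 6 and 4 of the 7 immune markers were called lower. In each comparison 1 was called higher, and the median log2 fold change was −5.75, −4.64, −5.09 and −3.79 (edgeR). Of the 6 stellate markers tested, 3, 2, 2 and 3 were lower and 0 higher. In the fit of HepOrgs alone, only 3 of the immune and 3 of the stellate markers passed the filter on low counts. For the others the filter may have set the direction of the calls, and the medians include them. Over all genes 20% to 25.7% fell. Rarb followed the order of Lrat in the fresh libraries (4.02, 12.3 and 5.05 CPM). Cyp26a1 (79.2, 971 and 59 CPM) and Cyp26b1 (0.652, 18.2 and 0.517 CPM) were instead lowest in the third. The part of other cell types in the levels of Lrat, Rarb, Cyp26a1 and Cyp26b1 was not tested.

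The oxidising enzymes of hepatocytes were affected to different degrees. Adh4, an alcohol dehydrogenase that also oxidises retinol, was at 328, 194 and 438 CPM in fresh hepatocytes, against 6.96, 13.8 and 4.11 CPM in HM-Wnt at 1 week and 2.67, 5.87 and 1.27 CPM at 2 weeks. In MM it was at 37.7, 57.4 and 4.82 CPM at 1 week and 29.5, 16 and 8.01 CPM at 2 weeks. All HepOrg libraries lay below the fresh ones, and the log2 fold change was −5.30 ± 0.91, −6.61 ± 0.96, −3.27 ± 0.82 and −4.17 ± 0.86 in the same order of conditions (adjusted p = 0.000357, 9.21e-05, 0.00615 and 0.00181, edgeR). Adh1, the major alcohol dehydrogenase of hepatocytes, was at 3110, 4050 and 1750 CPM in fresh hepatocytes and at 554 to 4270 CPM over the HepOrg libraries. It was called lower in HM-Wnt at 2 weeks, where all libraries lay below the fresh ones (1470, 1740 and 554 CPM, log2 fold change −1.27 ± 0.45, adjusted p = 0.0304, edgeR), a call that was lost without the first or the second fresh library (adjusted p = 0.0644 and 0.113) and without the first or last HM-Wnt library (adjusted p = 0.0505 and 0.111). In the other 3 conditions adjusted p was 0.782, 0.828 and 0.721.

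Dhrs3, the retinal reductase that returns retinal to retinol, was at 222, 343 and 227 CPM in fresh hepatocytes. It was at 14.9 to 31 CPM in the 6 HM-Wnt libraries and at 55 to 93.7 CPM in the 6 MM libraries, so the fresh, MM and HM-Wnt libraries formed 3 separate levels. The log2 fold change against fresh hepatocytes was −3.56 ± 0.29 and −3.61 ± 0.29 in HM-Wnt and −1.89 ± 0.27 and −1.59 ± 0.27 in MM (adjusted p = 9.45e-07, 7.56e-07, 0.000128 and 0.00048, edgeR). Aldh1a1, the retinaldehyde dehydrogenase that hepatocytes express most strongly, followed the same order with smaller steps. It was at 636, 748 and 420 CPM in fresh hepatocytes, at 152 to 219 CPM in HM-Wnt and at 295 to 439 CPM in MM, where 1 library at 2 weeks overlapped the lowest fresh one. Its log2 fold change was −1.61 ± 0.23 and −1.71 ± 0.23 in HM-Wnt and −0.88 ± 0.22 and −0.69 ± 0.22 in MM (adjusted p = 8.72e-05, 4.62e-05, 0.00667 and 0.0257, edgeR). Reads of Aldh1a1 could be shared with its near-identical neighbour Aldh1a7. On the deposited TPM scale, where the median of all genes in the 4 comparisons with fresh hepatocytes lay 0.38 to 0.65 log2 units higher than on the TMM scale, the change of Aldh1a1 in MM was not called at either time (log2 fold change −0.22 and −0.13, adjusted p = 0.445 and 0.65 by limma). The 2-week call was also lost when the first or second fresh library or the second or last MM library was left out.

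Aldh1a2, the retinaldehyde dehydrogenase known from embryonic and mesenchymal tissues, was the 1 member that rose. It had 1, 7 and 4 counts in fresh hepatocytes and 132, 34 and 40 in MM at 1 week, and these groups did not overlap. In MM at 2 weeks it had 15, 32 and 93 counts, and in HM-Wnt 22, 4 and 95 at 1 week and 24, 1 and 41 at 2 weeks. It passed the filter on low counts through the HepOrgs alone, and only the rise in MM at 1 week passed the threshold (log2 fold change 2.92 ± 1.11, adjusted p = 0.0478, edgeR), with adjusted p of 0.0853, 0.19 and 0.0647 in the other conditions. The call was lost without the first fresh library (adjusted p = 0.135), without replicate 3, whose genotype label differs from its title (0.12), and without any 1 of the 3 MM libraries (0.147, 0.0597 and 0.0541). Portal mesenchyme markers (9 genes) summed to 5.78 to 29.8 TPM in fresh hepatocytes and to 30.2 to 154 TPM in HepOrgs, and their part in the level of Aldh1a2 was not tested. Gene by gene these markers were mixed. Of 7 tested in HM-Wnt at 1 and 2 weeks and MM at 1 and 2 weeks, 0, 1, 1 and 1 were called higher. Called lower were 2, 2, 1 and 1 (edgeR), where 19.7% to 26.1% of all genes rose and 20% to 25.7% fell. Leaving out fresh replicate 3 changed no other call on the 9 genes in the 4 comparisons.

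**Figure D2:**
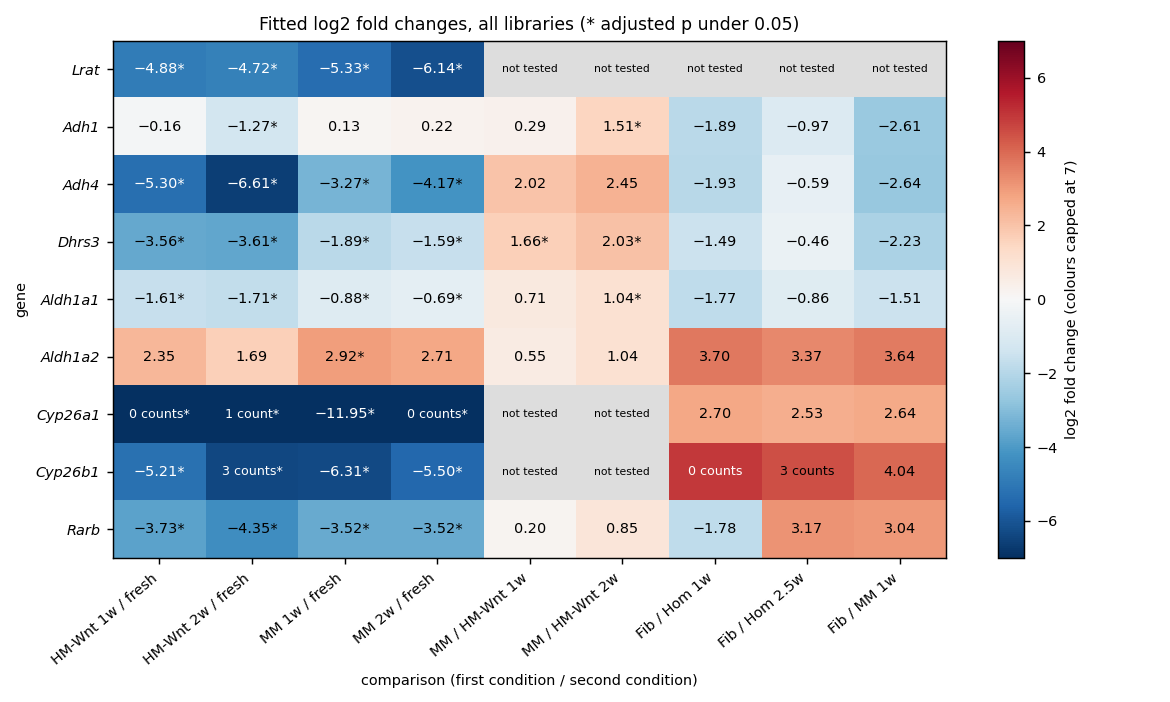
Fitted log2 fold changes of the 9 genes (rows) in 9 comparisons (columns, first condition over second), from red (higher in the first) to blue (lower), with an asterisk where adjusted p was under 0.05 by edgeR with all libraries. Cells that give a number of counts mark comparisons in which the lower condition had 3 counts or fewer in all, so that the colour is no measure of the fold, and grey cells were not tested; 7 or 8 genes carry an asterisk against fresh hepatocytes in each column, and 0 carry one in the 3 assembloid columns.

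Other genes of the pathway were examined as a list of 43 genes (carriers, ester storage, oxidoreductases, dehydrogenases and receptors), of which 33 passed the filter on low counts in the comparisons with fresh hepatocytes. Against the same backgrounds as above, with a median log2 fold change of −1.02, −0.99, −0.71 and −0.56, 17 fell and 2 rose in HM-Wnt at 1 week, 19 fell and 2 rose at 2 weeks, 16 fell and 3 rose in MM at 1 week, and 15 fell and 2 rose at 2 weeks. The side on which the genes of this list passed the filter on low counts was not examined. The 1 retinoic acid hydroxylase in it was called lower in all 4 comparisons. It did not pass the filter in the fit of HepOrgs alone, so the filter may have set its direction. The oxidoreductases of retinol and retinal had 5 to 8 of 13 tested genes lower, and the ester storage, release and saturation genes 2 to 5 of 6. By lowest p in any of the 4 comparisons, the leading genes were Retsat (retinol saturase), Bco2 (a carotenoid cleaving enzyme), Dgat1 (an acyltransferase that can esterify retinol), Rdh16, Rdh16f2 and Rdh5. Retsat fell by 3.99 ± 0.32 on the log2 scale in HM-Wnt at 1 week and by 2.04 ± 0.29 in MM (adjusted p = 8.18e-07 and 0.000134, edgeR). Bco2 fell by 4.14 ± 0.40 and by 2.60 ± 0.37 in the same pair of comparisons (adjusted p = 3.61e-06 and 0.000119, edgeR). Rdh10, which oxidises retinol in embryonic tissues, fell by 1.48, 0.99, 1.58 and 0.81 log2 units in the 4 conditions, all called.

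Among the receptors, Rarg was the gene that rose, by a log2 fold change of 1.90 in HM-Wnt at 2 weeks and of 1.70 and 1.68 in MM (adjusted p = 0.0123, 0.0256 and 0.0281, edgeR), from 16, 61 and 24 counts in fresh hepatocytes to 32 to 299 counts across all HepOrg libraries. Rara was not called in any of the 4 comparisons, and Rxra, the RXR form typical of liver, was called lower in HM-Wnt at 2 weeks (log2 fold change −0.66, adjusted p = 0.0424, edgeR). Rxrg, another RXR, had 215, 226 and 217 counts in fresh hepatocytes and 0 to 59 in HepOrgs, and it was lower in all 4 comparisons, with a log2 fold change from −6.58 in HM-Wnt to −2.98 in MM at 2 weeks (adjusted p = 3.52e-05 and 0.00579, edgeR). Of 10 textbook genes induced by retinoic acid, 5 of which are among the 9 genes above, 7 were tested. The 5 that fell in each of the 4 comparisons were those already counted among the 9 (Cyp26a1, Cyp26b1, Rarb, Dhrs3 and Lrat). For Cyp26a1, Cyp26b1 and Lrat the filter on low counts set the direction, and of the 5 only Rarb and Dhrs3 passed it on both sides. Of the other 2 genes 1 rose and 1, Nrip1, was not called, where 19.7% to 26.1% of all genes rose. The gene that rose was Tgm2, which encodes a transglutaminase and is also induced by other signals, and its log2 fold change was 1.81, 2.60, 3.66 and 3.36 in the same order (adjusted p = 0.0287, 0.00453, 0.000869 and 0.0015, edgeR).

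The second comparison asked what the change of medium does to retinoid genes in HepOrgs. Dhrs3 and Aldh1a1 were higher in MM than in HM-Wnt, and so was Adh1 at 2 weeks, while Lrat, Cyp26a1 and Cyp26b1 were too sparse to be tested (6 of the 9 genes passed the filter). At 1 week 1 of the 6 genes was called, Dhrs3, against 2.98% of 12989 genes (1.76% higher and 1.22% lower). At 2 weeks 3 were called, all higher, against 11.5% of all genes (6.84% higher and 4.61% lower). The median log2 fold change of the 6 genes was 0.63 and 1.27, against 0 and −0.02 over all genes. In HepOrgs, same-numbered libraries deviated together from their condition means, so a fit with the replicate number as a block is also given. With that block 3 genes were called higher at 1 week, where 9.48% of all genes were called (5.62% higher and 3.86% lower), and 4 at 2 weeks, where 19.6% were (11% higher and 8.6% lower).

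Dhrs3 was at 23.1, 14.9 and 31 CPM in HM-Wnt and at 79.5, 55 and 84 CPM in MM at 1 week. At 2 weeks it was at 21.6, 18.1 and 26.1 CPM in HM-Wnt and at 89.6, 84.5 and 93.7 CPM in MM. The media did not overlap at either time, and Dhrs3 was higher in MM within every replicate number. The difference was 3.15-fold at 1 week (log2 fold change 1.66 ± 0.26, adjusted p = 0.0114) and 4.08-fold at 2 weeks (2.03 ± 0.26, adjusted p = 0.00122, edgeR). At 1 week the call was lost without the first MM library (log2 fold change 1.59, adjusted p = 0.058), and with the block adjusted p was 0.00165.

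Aldh1a1 was at 217, 172 and 219 CPM in HM-Wnt and 359, 339 and 295 CPM in MM at 1 week, and at 187, 152 and 219 CPM against 439, 343 and 354 CPM at 2 weeks. The media did not overlap at either time. The log2 fold change was 0.71 ± 0.19 at 1 week (adjusted p = 0.0611, and 0.026 with the block) and 1.04 ± 0.19 at 2 weeks (adjusted p = 0.00625, edgeR). On the TPM scale the 2-week difference was not called (log2 fold change 0.67, adjusted p = 0.0675, limma).

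The alcohol dehydrogenases were more variable. Adh1 overlapped between media at 1 week and was higher in MM at 2 weeks, at 3510, 4270 and 2790 CPM against 1470, 1740 and 554 CPM (log2 fold change 1.51 ± 0.44, adjusted p = 0.0477, edgeR). That call was lost without any 1 of the 3 HM-Wnt libraries (adjusted p = 0.103, 0.052 and 0.12) and without the first or second MM library (0.117 and 0.15), while adjusted p was 0.00178 with the block. Adh4 did not pass the test without the block (log2 fold change 2.02 ± 0.82 and 2.45 ± 0.84, adjusted p = 0.181 and 0.0811, edgeR), and with the block it did at both times (1.68 and 2.60, adjusted p = 0.0479 and 0.00481). Its lowest MM library at 1 week, at 4.82 CPM, lay within the HM-Wnt range, and at 2 weeks the media did not overlap. Aldh1a2 and Rarb overlapped between the media and were not called, with adjusted p of 0.505 to 0.898.

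**Figure D3:**
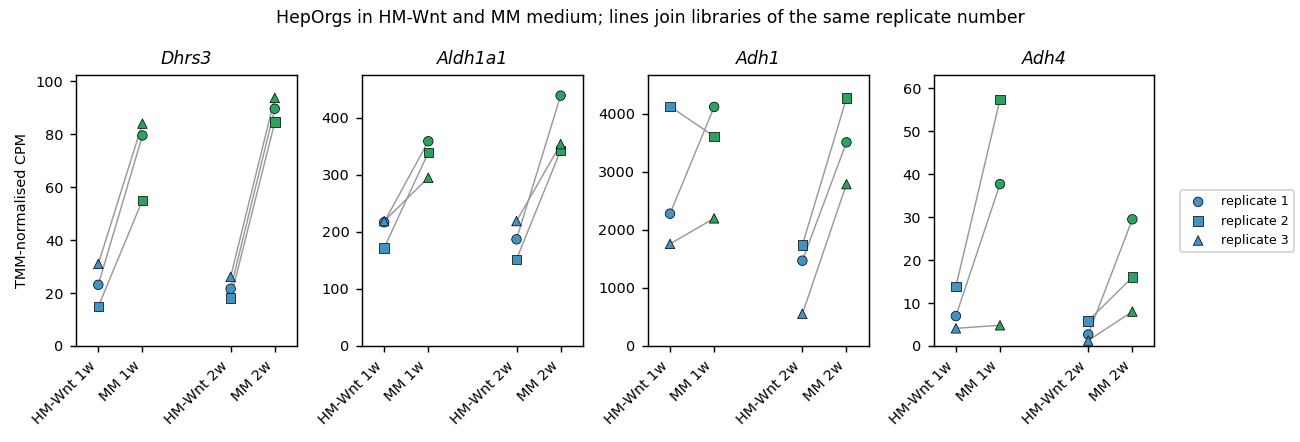
Normalised counts (CPM) of Dhrs3, Aldh1a1, Adh1 and Adh4 in HepOrgs in HM-Wnt (blue) and MM (green) at 1 and 2 weeks, with lines joining libraries of the same replicate number within a time (circle, square and triangle for replicates 1, 2 and 3). Dhrs3 and Aldh1a1 rise along every line, and Adh1 at 1 week falls along the line of replicate 2.

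The 7 hepatocyte markers summed to 55400 to 62500 TPM in HM-Wnt and 10300 to 42000 TPM in MM at 1 week. At 2 weeks they summed to 43000 to 49600 against 12500 to 23500 TPM. Gene by gene, 0 of the 7 were called at either time, with a median log2 fold change of −0.75 and −0.81 (edgeR). The part of hepatocyte content in the levels of Dhrs3, Aldh1a1, Adh1 and Adh4 was not tested. Of the 43 other retinoid genes, 32 were tested, and 4 rose and 1 fell in MM at 1 week, where 2.98% of all genes were called, and 9 rose and 3 fell at 2 weeks (11.5% of all genes). With the block the number called was 12 (10 higher) and 16 (12 higher), against 9.48% and 19.6% of all genes. Retsat, Rdh16 (a retinol dehydrogenase of hepatocytes) and Aldh1a7 led the list at both times. Retsat was 1.93 ± 0.26 and 3.02 ± 0.27 log2 units higher in MM (adjusted p = 0.00662 and 0.000319, edgeR), and Rdh16 was 1.85 ± 0.40 and 3.25 ± 0.42 higher (adjusted p = 0.0355 and 0.00128). Rara, Rarg, Rxra and Rdh10 were not called at either time.

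Few changes with time were called among these genes. Between 1 and 2 weeks 0 of the 6 genes were called in HM-Wnt (1 at unadjusted p under 0.05) and 0 in MM (0 at unadjusted p under 0.05) by edgeR, DESeq2 called 0 in both, and of all 12989 genes 0 and 2 were called (0% and 0.0154%, both of the latter higher) by edgeR and 22 and 308 by DESeq2. Adh1 was the gene at unadjusted p under 0.05 in HM-Wnt, where its 2-week libraries lay below all 1-week ones (log2 fold change −1.11 ± 0.43, adjusted p = 0.556, edgeR). The change of the medium effect between 1 and 2 weeks was called for 0 of the 6 genes, with 0 at unadjusted p under 0.05 and 0 by DESeq2, and for 0 genes of the table by edgeR and 46 by DESeq2.

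The third comparison asked what a 10 times higher number of mesenchymal cells does in assembloids. In the counts, Aldh1a2, Cyp26b1, Cyp26a1 and, leaving aside the homeostatic library that stood apart, Rarb were more abundant in fibrotic-like assembloids, and the hepatocyte enzymes Dhrs3, Aldh1a1 and Adh1 had lower values at 1 week. With all 12 libraries, however, 0 of the 8 genes tested (Lrat was too sparse) and 0% of 14253 genes were called at either time by edgeR. At unadjusted p under 0.05 there were 2 of the 8 genes at 1 week and 1 at 2.5 weeks, and DESeq2 called 1 at each time, Cyp26b1 (adjusted p = 0.00105 and 0.0271), whereas over the whole table it called 6.08% of genes at 1 week (4.5% rising, 1.58% falling) and 1.92% of genes at 2.5 weeks (1.9% rising, 0.014% falling). Cyp26a1 and Cyp26b1 passed the filter on low counts through the fibrotic-like assembloids alone, so their direction was set by it. Without the second homeostatic 1-week library, edgeR called 3 of the 8 genes at 1 week, Rarb as higher and Dhrs3 and Aldh1a1 as lower, against 8.01% of 14746 genes (3.14% higher and 4.87% lower). In the same fit it called 1 at 2.5 weeks, Rarb as higher, against 0.258% of genes. Each library was left out in turn in the comparisons that use it, and leaving out this one where its group is not compared was chosen after the data were seen.

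Aldh1a2, which makes retinoic acid, had 1514, 2473 and 111 counts in fibrotic-like and 49, 0 and 163 in homeostatic assembloids at 1 week. At 2.5 weeks it had 820, 1366 and 889 counts against 165, 102 and 2. The groups overlapped at 1 week through the lowest fibrotic-like library and did not overlap at 2.5 weeks, where all fibrotic-like libraries were far higher. The log2 fold change was 3.70 ± 1.76 and 3.37 ± 1.73 with all libraries (adjusted p = 0.376 and 0.799). Without the library that stood apart it was 3.13 and 3.35 (adjusted p = 0.143 and 0.164, edgeR), still short of the threshold.

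Rarb had 418, 505 and 240 counts in fibrotic-like assembloids at 1 week and 261, 332 and 361 at 2.5 weeks. In homeostatic assembloids it had 12, 2705 and 50 counts at 1 week and 32, 22 and 25 at 2.5 weeks. The 2705 counts belong to the library that stood apart, in which Dhrs3, Adh4, Aldh1a2 and Cyp26a1 had 0 counts and portal mesenchyme markers summed to 4530 TPM against 41.1 and 287 TPM in its group mates. With that library the log2 fold change at 1 week was −1.78 ± 1.38 (adjusted p = 0.617), and without it the direction turned to 3.03 ± 0.54, or 8.14-fold higher (adjusted p = 0.0408, edgeR). At 2.5 weeks the groups did not overlap, and the log2 fold change was 3.17 ± 1.45 with all libraries (adjusted p = 0.756) and 3.17 ± 0.46, or 8.99-fold, without the 1-week library (adjusted p = 0.0434, edgeR).

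The hydroxylases had few counts in assembloids. Cyp26b1 had 61, 159 and 11 counts in fibrotic-like against 0, 0 and 0 in homeostatic assembloids at 1 week, and 33, 136 and 27 against 3, 0 and 0 at 2.5 weeks, with no overlap at either time. It was at least 16.3-fold higher at 1 week, with 3 counts per library as the floor, and 52.9-fold higher at 2.5 weeks, with an exact 95% counting interval from 17.8 to 259 that covers counting error only. The second fibrotic-like library held most of these counts at each time. When 1 library was left out, the fitted log2 fold change ranged from 3.58 to 5.43 at 1 week and from 3.43 to 5.19 at 2.5 weeks. In edgeR adjusted p was 0.271 and 0.726 with all libraries and 0.0574 and 0.117 without the library that stood apart. Cyp26a1 had 19, 57 and 23 counts against 0, 0 and 7 at 1 week, and 56, 6 and 124 against 0, 0 and 16 at 2.5 weeks, where the groups overlapped. Its adjusted p was 0.488 and 0.94 with all libraries and 0.364 and 0.37 without the 1. In all assembloid libraries Cyp26a1 stayed far below its level in fresh hepatocytes, at 0 to 4.06 TPM against 74.6 to 1120 TPM.

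Of the hepatocyte enzymes, Dhrs3 and Aldh1a1 were called lower in fibrotic-like assembloids at 1 week without the library that stood apart, and none was called at 2.5 weeks. Dhrs3 was at 15.2, 10.2 and 21.1 CPM in fibrotic-like assembloids at 1 week, against 77.6, 0 and 52.7 CPM in homeostatic ones. With all libraries the log2 fold change was −1.49 ± 1.46 (adjusted p = 0.701, edgeR). Without the library at 0 the groups were apart and the log2 fold change was −2.07 ± 0.31, or 4.21-fold lower (adjusted p = 0.0396, edgeR). At 2.5 weeks it was at 59.3, 55.2 and 53.7 CPM against 58.7, 70.7 and 101 CPM, and the groups overlapped. Aldh1a1 was at 154, 143 and 51.4 CPM against 696, 92.4 and 402 CPM at 1 week (log2 fold change −1.77 ± 0.73, adjusted p = 0.328, with all libraries and −2.24 ± 0.59, adjusted p = 0.048, without the library that stood apart, edgeR). At 2.5 weeks its values were 440, 105 and 319 CPM against 579, 511 and 478 CPM, and the groups did not overlap on this scale (adjusted p = 0.353 in the same fit). Adh1 had adjusted p of 0.0701 and 0.43 and Adh4 of 0.0547 and 0.591 at 1 and 2.5 weeks in that fit, and with all libraries adjusted p was 0.5 for Adh1 and 0.637 for Adh4 at 1 week. At 2.5 weeks it was 1 for Dhrs3, Aldh1a1, Adh1 and Adh4 with all libraries (log2 fold change −0.46, −0.86, −0.97 and −0.59). On the TPM scale, where the median of all genes lay 0.67 and 0.38 log2 units higher than on the TMM scale at 1 and 2.5 weeks, the direction of Dhrs3 with all libraries turned positive at both times, and that of Adh1 did at 1 week.

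Markers of several cell types differed between the assembloid groups. The 9 portal mesenchyme markers summed to 1160 to 2610 TPM in fibrotic-like assembloids at 1 week and 502 to 2820 TPM at 2.5 weeks, against 41.1 to 4530 TPM and 76.4 to 109 TPM in homeostatic ones. The library at 4530 TPM, which is the one that stood apart, had the highest Rarb (2705 counts) and no counts of Aldh1a2, Cyp26a1 or Cyp26b1. Among the fibrotic-like libraries the one at 2450 TPM had 1.49 CPM of Aldh1a2 and the one at 502 TPM had 16.8 CPM. Cholangiocyte markers summed to 15100 to 19800 TPM in fibrotic-like and 6250 to 10200 TPM in homeostatic assembloids at 1 week, without overlap, and to 8210 to 15100 against 7140 to 9950 TPM at 2.5 weeks. Stellate cell markers summed to 476 to 563 against 17.3 to 647 TPM at 1 week and to 160 to 1210 against 16.4 to 50.1 TPM at 2.5 weeks, where the groups did not overlap. The hepatocyte markers summed to 7030 to 39200 TPM in fibrotic-like and 1690 to 34900 TPM in homeostatic assembloids at 1 week, and to 21400 to 44100 against 26100 to 36800 TPM at 2.5 weeks. The assembloids hold a mixture whose makeup was set by the design, and a change in the share of cells and a change within cells cannot be told apart. The part of these markers in the levels of the 9 genes was not tested.

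**Figure D4:**
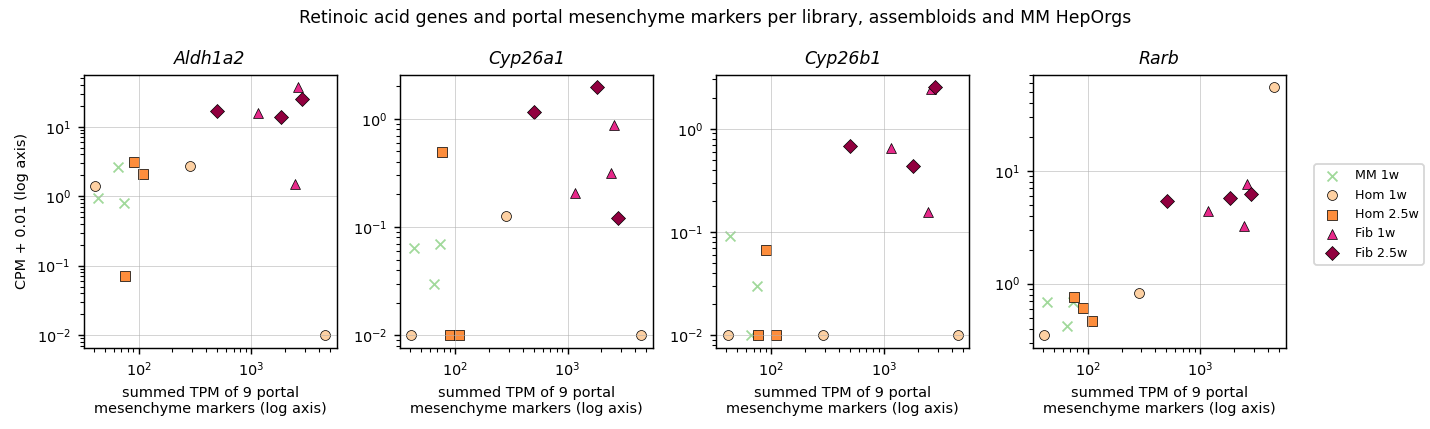
Normalised counts (CPM plus 0.01, log axis) of Aldh1a2, Cyp26a1, Cyp26b1 and Rarb against the summed TPM of 9 portal mesenchyme markers (log axis) in 15 libraries: MM HepOrgs at 1 week and homeostatic (Hom) and fibrotic-like (Fib) assembloids at 1 and 2.5 weeks. The fibrotic-like libraries lie at 502 TPM or more on the horizontal axis; the homeostatic library at 4530 TPM has the highest Rarb and no counts of the other 3 genes.

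Transcripts of genes that carry retinoids into and within cells were counted in the same samples. Stra6, the receptor that takes up retinol from its blood carrier, had 669, 39 and 1744 counts in fibrotic-like and 9, 0 and 0 in homeostatic assembloids at 1 week, and 146, 559 and 159 against 46, 8 and 7 at 2.5 weeks. Crabp1, a cytosolic carrier of retinoic acid, had 10, 142 and 3 counts against 0, 0 and 0, and 1, 22 and 127 against 0, 0 and 0. Crabp2, which delivers retinoic acid to receptors, had 36, 3 and 17 counts against 0, 0 and 0, and 13, 91 and 29 against 3, 0 and 0. None of the groups overlapped in counts, but the lowest values of Crabp1 (3 and 1) and Crabp2 (3) lay within the 3 counts that 0 allows. Stra6, Crabp1 and Crabp2 had too few counts in homeostatic assembloids to pass the filter on low counts there, so their direction was set by it. The share of all genes without overlap was not counted, so the lack of overlap cannot be set against a background. None of these genes was called by edgeR, with adjusted p of 0.274 to 0.758 with all libraries and 0.062 to 0.186 without the library that stood apart. Of 9 carrier and uptake genes 8 were tested with all libraries and 0 were called. Their median log2 fold change, which includes Stra6, Crabp1 and Crabp2, was 0.53 at 1 week and 2.29 at 2.5 weeks. Of the other retinoid genes, 37 were tested with all libraries and 0 were called at either time by edgeR, with 6 and 3 at unadjusted p under 0.05 and 3 and 1 called by DESeq2 (6.08% and 1.92% of all genes). Their median log2 fold change was −0.62 and −0.53, against 0.20 and 0.03 over all genes. Without that library 10 of 38 were called at 1 week, all lower, where 4.87% of all genes were lower (among them Retsat, Ces1d and Rdh11), and 0 at 2.5 weeks (11 at unadjusted p under 0.05 by edgeR).

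Fibrotic-like assembloids were also set against HepOrgs alone in MM at 1 week. With all 9 libraries of that fit 0 of 8 genes and 0% of 13733 genes were called, with 2 of the 8 at unadjusted p under 0.05 by edgeR and 0 called by DESeq2. Without the homeostatic library that stood apart, which is no part of the comparison but shares the estimate of spread, 6 of the 8 genes were called against 22.9% of 14308 genes (12.6% higher and 10.3% lower). Rarb (log2 fold change 3.03 ± 0.53, adjusted p = 0.0146) and Aldh1a2 (3.63 ± 1.06, adjusted p = 0.0451) were higher. Dhrs3 (−2.24 ± 0.31, adjusted p = 0.0115), Adh1 (−2.62 ± 0.64, 0.0284), Aldh1a1 (−1.51 ± 0.44, 0.0428) and Adh4 (−2.65 ± 0.78, 0.0456) were lower, all by edgeR. The same pair of conditions fitted alone gave 6 calls from the same libraries, and the share of all genes called in that fit is not given here. The comparison with MM HepOrgs shares its fibrotic-like libraries with the one above and is not independent of it. Between homeostatic assembloids and MM HepOrgs 0 of the 8 genes were called by edgeR (1 at unadjusted p under 0.05) and 0 by DESeq2, and without that library 0 were called (0 at unadjusted p under 0.05).

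Between 1 and 2.5 weeks 0 of the 8 genes were called in homeostatic (1 at unadjusted p under 0.05) or fibrotic-like assembloids (0 at unadjusted p under 0.05) by edgeR, and 0 by DESeq2. Dhrs3 in fibrotic-like assembloids was at 10.2 to 21.1 CPM at 1 week and 53.7 to 59.3 CPM at 2.5 weeks, without overlap, yet its log2 fold change of 1.86 had an adjusted p of 0.422 even without the homeostatic library that stood apart. The change of the fibrotic-like effect between 1 and 2.5 weeks was called for 0 of the 8 genes (1 at unadjusted p under 0.05) and 0 genes of the table.

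The genes whose level over the 27 libraries was most like each of the 9, among 9998 genes, were named by Pearson's r of log2 CPM, as a description in which all libraries share their cell mixture and normalisation. Adh4 was most like C8a (r = 0.972) and Inhbc (0.971), and Dhrs3 most like Acad10 (0.972) and Vps9d1 (0.968). Adh1 followed Acsl5 (0.963) and Asgr1 (0.952), and Aldh1a1 followed Pgrmc1 (0.952) and Hadh (0.948). Lrat was nearest to Dcaf11 (0.895) and Hibadh (0.882), and Cyp26a1 to Upp2 (0.892) and Abat (0.882). For Rarb the nearest were Celf2 (0.905) and Tnrc18 (0.894), for Aldh1a2 Fkbp7 (0.857) and Ddah2 (0.854), and for Cyp26b1 Arhgap24 (0.814) and Ncald (0.764). Among the 9 genes themselves, Adh4 and Dhrs3 were most alike (r = 0.845).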

How the data were processed

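Bulk RNA-seq libraries were made by the SMART-seq2 method. According to the methods of the study, the authors aligned reads to GRCm39 with STAR and counted them with featureCounts. The deposited table gives a count and a TPM value per gene and library. The deposited counts were used for all tests, and the deposited TPM values for marker sums and for an alternative scale. In that table the gene length was within 10% of the whole gene span for 86.9% of 21616 protein coding genes, so TPM was not compared between genes. The table holds 37 libraries, 27 of which could be mapped to a titled sample, and 10 were not used.

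The 9 genes and all lists were chosen with earlier results of these data known. The rule for named genes took the 9 members, the other retinoid genes with the 3 lowest p of a comparison, 8 further genes (Rdh10, Crabp1, Crabp2, Stra6, Rara, Rarg, Rxra and 1 that is not reported here), and the 2 genes most like each member. Tgm2, Nrip1, Rxrg, Ces1d and Rdh11 were named after their values were seen. Counts were tested with edgeR 4.0.16 (TMM, filterByExpr with a minimum count of 10, quasi-likelihood fit with a prior count of 2, 2-sided, Benjamini-Hochberg over all genes tested, threshold 0.05) in R 4.3.3, fitting fresh hepatocytes with HepOrgs, HepOrgs alone, assembloids alone, or 1-week MM cultures together. Alternatives were DESeq2 1.42.0, limma 3.58.1 on log2(TPM + 1), RLE size factors, other filters, other sets of libraries, a replicate block and leaving out each library. The main edgeR fit, the replicate block, DESeq2 and limma were run on simulated counts for the first comparison of each set of libraries. The simulation used a fixed spread and no library like the second homeostatic 1-week one. It therefore says little about the assembloid fits, and the other settings were not simulated. In HepOrgs all 18 pairs of same-numbered libraries from different conditions correlated above 0.1 in their deviations from condition means (median 0.207), and 2 of 36 pairs with different numbers did, so the numbers were taken as pairs there. Depth ran from 30289364 to 65348596 counts, and counting intervals and the floor of 3 counts cover counting error only.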

Additional observations from a re-analysis of the deposited data

How the results depend on the processing

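Of 838 values of 63 log2 fold changes under other settings, 766 kept their direction and their side of the threshold, 42 lost it, 26 gained it and 4 turned direction. Against fresh hepatocytes the number of genes called (7, 8, 8 and 7 in HM-Wnt at 1 and 2 weeks and MM at 1 and 2 weeks) became 3, 4, 3 and 3 when every library had to have 10 counts, which removed sparse genes from the test, and 4, 4, 3 and 3 on log2(TPM + 1). Over the whole table the first setting called 5034, 5265, 4276 and 4003 of 10314 genes. The second called 5440, 6918, 5403 and 4715 of 9671. With all 27 libraries in 1 fit it was 3 and 4 in MM. The share of all genes called in that fit is not given here, so its counts, here and below, have no background. Between the media, the 1 gene at 1 week became 0 with all 27 libraries, 2 with DESeq2, 0 with only the 2 groups and 3 with the replicate block, and ranged from 0 to 2 when 1 library was left out (0 without the first and 2 without the last MM library). The whole table moved as well, from 387 of 12989 genes called to 1420 of 12989 with DESeq2, 30 of 12590 with only the 2 groups and 1232 of 12989 with the block. It was 42 of 13243 without the first and 600 of 13255 without the last MM library. The 3 genes at 2 weeks became 0 with all 27 libraries. Between assembloids at 1 week the count of 0 became 1 with all 27 libraries and 1 with DESeq2, and ranged from 0 to 3 when 1 library was left out. At 2.5 weeks it became 1 with DESeq2 and 1 with only the 2 groups, and ranged from 0 to 1. Of all genes, DESeq2 called 867 of 14253 at 1 week and 273 of 14253 at 2.5 weeks. With only the 2 groups 738 of 13355 were called at 2.5 weeks. Fibrotic-like assembloids against MM HepOrgs gave 6 with only the 2 groups and 0 to 6 when 1 library was left out. The highest count in each came without homeostatic 1-week replicate 2. The cause of these shifts was not tested. On log2(TPM + 1) the fold change between assembloids turned to 0.10 for Adh1 and 0.28 for Dhrs3 at 1 week, and to 0.15 for Dhrs3 at 2.5 weeks. That of Rarb at 1 week ranged from −2.32 to 3.03 when 1 library was left out. The share of the summed condition means found in fresh hepatocytes was, in TPM and in CPM, 9.98% and 14.2% for Adh1, 29.1% and 39.8% for Dhrs3, 13.7% and 19.9% for Aldh1a1, 0.147% and 0.336% for Aldh1a2, and 8.77% and 18.1% for Rarb. The share of promoters with the repeat was 0.0974% with a spacer of 5 bases, 0.268% with 2 and 0.222% with 1, and 0.056% with 5 in the 250 bases before GENCODE starts, where Cyp26a1 and not Rarb held it.

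In the fits with fresh hepatocytes, of assembloids and of 1-week MM cultures, libraries of the same replicate number were taken to share only a number (19 of 30, 6 of 18 and 2 of 9 pairs correlated above 0.1). With the replicate block the number of genes called against fresh hepatocytes was 7, 8, 8 and 7. Of all 13405 genes tested, that fit called 6956, 7204, 6071 and 5653 in the same order. The number was 0 in each assembloid comparison, and 0 of all 14253 genes were called between fibrotic-like and homeostatic assembloids. The block changed no count of the 9 genes other than those between the media. Depth limits Lrat, Cyp26a1 and Cyp26b1, which had few or 0 counts in most cultured libraries, so smaller differences among those conditions were not detectable.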
